A study of Mus musculus with 6 samples.

Results

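Fatty acid oxidation and ketogenesis were described here through 32 genes of mouse liver, in 3 libraries labelled Mdr2-knockout and 3 libraries labelled wild-type. The members were chosen by gene symbol from a list, and all 32 were among the 16603 genes of the deposited count table; all 32 passed the low-count filter, and 12612 genes were tested in all. By the step they catalyse, 17 members were placed in mitochondria, 11 in peroxisomes and 2 in ketone body metabolism, 1 was the fuel switch gene Pdk4, and 1, Acad11, was given no compartment. Mdr2 (gene symbol Abcb4) is the transporter that releases phosphatidylcholine into bile, and its loss in mice is used to model chronic bile duct injury. The labels give bulk liver tissue and a genotype for each library, and no treatment; strain, age, sex, diet, time of sampling and the nature of the allele are not stated in them.

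Hepatocytes burn fatty acids in 2 organelles. In mitochondria, long chains are activated to acyl-CoA, carried across the membranes as carnitine esters, and shortened by repeated rounds of dehydrogenation, hydration, a further dehydrogenation and thiolysis, with electrons passed to the respiratory chain. Peroxisomes shorten very long and branched chains and bile acid precursors and hand the products on. In fasting, surplus acetyl-CoA from mitochondria is turned into ketone bodies for other organs, and the nuclear receptor PPAR-alpha (Ppara) raises many of these enzymes together.

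Each library held 17100393 to 18124467 counts, and the members took 1.02% to 1.35% of the counts in the labelled Mdr2-knockout libraries and 1.14% to 1.53% in the labelled wild-type libraries. Abcb4, the gene named by the genotype, was at 482 ± 42.4 CPM (counts scaled to a common library size) in the labelled Mdr2-knockout libraries and 324 ± 48.1 CPM in the labelled wild-type libraries (SD, n = 3 each). That is the reverse of what a loss of the whole transcript would give, and without knowing which part the allele removes the count cannot check the genotype. The table's columns carry the letters M and N. M was read as Mdr2-knockout from the titles and N as wild-type by elimination, so groups are named by label and every direction rests on that reading. Whether the replicates are separate animals is not labelled; the p-values measure the spread of these libraries, part of which may be technical.

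In the labelled Mdr2-knockout libraries, 11 of the 17 mitochondrial members and 3 of the 11 peroxisomal members fell, and the 1 member that rose was Pdk4, a brake on glucose oxidation. Of the 32 members, 15 fell, 1 rose and 16 did not pass an edgeR quasi-likelihood test at an adjusted p of 0.05. Over all tested genes, 16.3% fell and 20.9% rose by the same rule, 37.1% in either direction. The members' median log2 fold change was -0.43, against 0.01 for all tested genes; 31 of the 32 had a negative value. None of the 2 ketone body members passed. Median log2 fold changes were -0.43 for the mitochondrial, -0.26 for the peroxisomal and -0.62 for the ketone body members. Of the 3 lower peroxisomal members, Slc27a2 and Eci2 have products that are also found in other organelles. Differences between compartments were not tested. The groups did not overlap for 17 members, 53.1%, which is near the 51.3% of all tested genes. That count, like each overlap given below for a single gene, is in CPM and depends on the scaling. In the deposited FPKM, values per length scaled by total counts, only Acsl1, Cpt2, Etfb, Slc27a2, Hacl1 and Pdk4 did not overlap. Every member had a mean of at least 10.5 CPM; of the 7764 tested genes at or above that level 24.6% fell, and their median log2 fold change was -0.10.

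The count of lower members depended on the scaling of the libraries and on single libraries. With total counts in place of trimmed-mean (TMM) factors 5 members fell, beside 330 of the 12612 tested genes. With factors taken from a list of 30 hepatocyte genes 1 member fell and 2 rose, beside 154 and 8635 of the tested genes. Under hepatocyte-list scaling 5 of the 15 lower members, Acadl, Acads, Hadhb, Hadh and Etfa, changed sign, to between 0.0052 and 0.11 on the log2 scale. Leaving out labelled Mdr2-knockout replicate 3 gave 23 lower members, 6 of them peroxisomal, beside 1721 lower genes over all tested genes. Leaving out labelled wild-type replicate 1 gave 8 (6 mitochondrial, 1 peroxisomal), beside 1611 lower genes. Leaving out labelled wild-type replicate 2 gave 9 (6 mitochondrial), beside 1449. The mitochondrial count was 7 without labelled Mdr2-knockout replicate 2, beside 1534 lower genes. The peroxisomal count was 6 without labelled wild-type replicate 3, beside 2006.

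**Figure D1:**
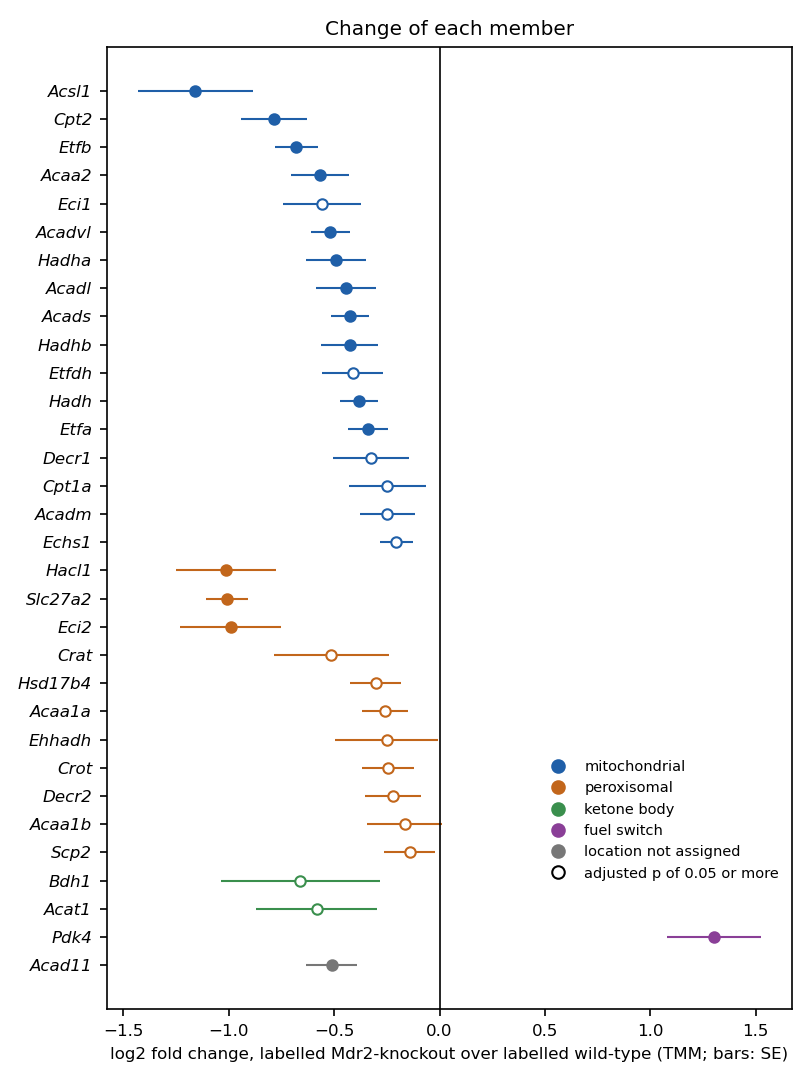
Log2 fold change of each of the 32 members, labelled Mdr2-knockout over labelled wild-type, with TMM scaling; bars are standard errors and colours give the compartment. Filled points had an edgeR adjusted p under 0.05: 15 lie left of 0 and Pdk4 alone lies right of it.

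Among the members that bring fatty acids into mitochondria, the activation gene Acsl1 and the inner-membrane gene Cpt2 fell, while the outer-membrane gene Cpt1a did not pass. Acsl1 encodes the main long-chain acyl-CoA synthetase of liver, which activates fatty acids. It had 561, 437 and 814 CPM in the labelled Mdr2-knockout libraries, against 1554, 1450 and 1039 CPM in the labelled wild-type libraries. Each labelled Mdr2-knockout library lay below each labelled wild-type library (log2 fold change -1.16, SE 0.27, adjusted p = 0.0216). The call was lost without labelled Mdr2-knockout replicate 1 (adjusted p = 0.073), or without labelled wild-type replicate 1 (0.0599) or 2 (0.0596). It was also lost with the replicate number as a block (0.0954).

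Cpt2 encodes the inner-membrane carnitine palmitoyltransferase, which turns acylcarnitine back into acyl-CoA. Its levels were 99.9, 89.4 and 139 CPM in the labelled Mdr2-knockout libraries and 202, 184 and 181 CPM in the labelled wild-type libraries, with no overlap (log2 fold change -0.79, SE 0.16, adjusted p = 0.00699). Cpt1a encodes the outer-membrane enzyme, the step that malonyl-CoA inhibits and that is held to set the rate of the pathway. Its levels were 349, 314 and 522 CPM in the labelled Mdr2-knockout libraries, against 468, 499 and 440 CPM in the labelled wild-type libraries. The highest of all 6 values was in labelled Mdr2-knockout replicate 3, and the gene did not pass (log2 fold change -0.25, SE 0.18, adjusted p = 0.327). Without that library Cpt1a fell by 0.50 on the log2 scale (adjusted p = 0.00626).

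With TMM the 9 genes of the mitochondrial spiral had log2 fold changes from -0.57 to -0.20, and 7 of them fell; with total counts Acadm and Echs1 were above 0. Acadvl encodes the dehydrogenase that starts the spiral on very long chains. It stood at 322, 305 and 354 CPM in the labelled Mdr2-knockout libraries and at 512, 458 and 434 CPM in the labelled wild-type libraries (log2 fold change -0.52, SE 0.09, adjusted p = 0.00206). The groups did not overlap. Acads, the short-chain dehydrogenase gene, had 116, 103 and 125 CPM in the labelled Mdr2-knockout libraries and 165, 154 and 143 CPM in the labelled wild-type libraries, again without overlap (log2 fold change -0.43, SE 0.09, adjusted p = 0.00463). Acadl, the long-chain dehydrogenase gene, averaged 132 ± 22.2 CPM in the labelled Mdr2-knockout libraries and 180 ± 27.1 CPM in the labelled wild-type libraries (SD, n = 3 each), and passed narrowly (adjusted p = 0.0405). Its call was lost without labelled Mdr2-knockout replicate 1 (adjusted p = 0.123) or 2 (0.106), or without labelled wild-type replicate 1 (0.0858) or 2 (0.0696).

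Acadm, which encodes the medium-chain dehydrogenase, did not pass. It had 315, 308 and 403 CPM in the labelled Mdr2-knockout libraries and 470, 383 and 365 CPM in the labelled wild-type libraries (log2 fold change -0.25, SE 0.13, adjusted p = 0.161). Labelled Mdr2-knockout replicate 3 lay inside the range of the labelled wild-type libraries; without it the adjusted p was 0.0374. The later steps were carried by Hadh, the short-chain hydroxyacyl-CoA dehydrogenase gene, and Acaa2, the thiolase gene. Hadh averaged 201 ± 17.7 CPM in the labelled Mdr2-knockout libraries and 262 ± 19.3 CPM in the labelled wild-type libraries, and Acaa2 averaged 454 ± 71.6 CPM in the labelled Mdr2-knockout and 673 ± 95.2 CPM in the labelled wild-type libraries. Both fell (adjusted p = 0.00846 for Hadh and 0.0106 for Acaa2) without overlap. Echs1, the enoyl-CoA hydratase gene, did not overlap either, at 177, 155 and 160 CPM in the labelled Mdr2-knockout libraries and 199, 183 and 186 CPM in the labelled wild-type libraries, yet its change of -0.20 did not pass (adjusted p = 0.0638). It passed as lower with DESeq2 (adjusted p = 0.0455) and without labelled Mdr2-knockout replicate 1 (0.0366), and as higher with the hepatocyte-list scaling.

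Hadha and Hadhb encode the 2 subunits of the mitochondrial trifunctional protein, which carries out the last 3 steps on long chains. In GRCm38 the genes lie head to head on chromosome 5, with starts 273 bases apart, so their promoter windows in the RefSeq table (250 bases before to 50 after the start) share 228 bases. The window of Hadhb, on the plus strand at chr5:30155003-30155302, is shown because the upstream bases of the 2 subunit genes overlap in it; the start of Hadha itself lies outside it. Capitals mark the bases that also belong to the window of Hadha, and the sequence runs in the direction of Hadhb.
Hadhb: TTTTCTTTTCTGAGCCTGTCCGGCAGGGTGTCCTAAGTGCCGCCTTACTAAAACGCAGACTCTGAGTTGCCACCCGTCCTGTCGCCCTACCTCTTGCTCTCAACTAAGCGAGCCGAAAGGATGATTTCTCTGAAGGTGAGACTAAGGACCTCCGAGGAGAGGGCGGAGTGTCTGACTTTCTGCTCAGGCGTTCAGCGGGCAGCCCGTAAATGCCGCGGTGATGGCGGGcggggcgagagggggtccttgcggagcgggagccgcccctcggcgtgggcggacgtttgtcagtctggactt

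Both subunit genes fell by similar amounts. Hadha had 279, 245 and 349 CPM in the labelled Mdr2-knockout libraries, against 463, 411 and 354 CPM in the labelled wild-type libraries (log2 fold change -0.49, SE 0.14, adjusted p = 0.0252). Hadhb had 101, 99.0 and 135 CPM in the labelled Mdr2-knockout libraries, against 166, 154 and 131 CPM in the labelled wild-type libraries (log2 fold change -0.43, SE 0.14, adjusted p = 0.0381). Hadhb overlapped between the groups, Hadha did not, and in both genes labelled Mdr2-knockout replicate 3 and labelled wild-type replicate 3 were close together. Within a library the ratio of Hadha to Hadhb counts was 2.60 ± 0.138 in the labelled Mdr2-knockout and 2.72 ± 0.0680 in the labelled wild-type libraries, with overlap. Neither call was secure: leaving out labelled Mdr2-knockout replicate 1 or 2, or labelled wild-type replicate 1 or 2, gave adjusted p of 0.0837, 0.0657, 0.0671 and 0.0657 for Hadha. The same 4 omissions gave 0.119, 0.108, 0.0997 and 0.0966 for Hadhb.

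Electrons from the acyl-CoA dehydrogenases pass to electron transfer flavoprotein, a pair of subunits encoded by Etfa and Etfb, and then through the oxidoreductase encoded by Etfdh to ubiquinone. Etfb had 147, 137 and 169 CPM in the labelled Mdr2-knockout libraries and 264, 245 and 217 CPM in the labelled wild-type libraries (log2 fold change -0.68, SE 0.10, adjusted p = 0.000735). Etfa had 234, 212 and 244 CPM in the labelled Mdr2-knockout libraries and 317, 294 and 260 CPM in the labelled wild-type libraries (log2 fold change -0.34, SE 0.09, adjusted p = 0.0178). Neither gene overlapped between the groups. The call of Etfa was lost without labelled Mdr2-knockout replicate 2 (adjusted p = 0.0661) or labelled wild-type replicate 1 (0.06) or 2 (0.0546). Etfdh averaged 238 ± 40.2 CPM in the labelled Mdr2-knockout and 317 ± 47.2 CPM in the labelled wild-type libraries and did not pass (adjusted p = 0.0536). Eci1 and Decr1, whose products shift (Eci1) or reduce (Decr1) double bonds so that unsaturated chains can pass the spiral, did not pass either. Their log2 fold changes were -0.56 (adjusted p = 0.057) and -0.33 (adjusted p = 0.206). Etfdh passed without labelled Mdr2-knockout replicate 3 (adjusted p = 0.0166) or labelled wild-type replicate 3 (0.013), Eci1 passed without the same libraries (0.0451 and 0.0266), and Decr1 passed without the first of them (0.0327). With DESeq2 Eci1 (adjusted p = 0.0031) and Etfdh (0.0132) passed as lower, and Etfdh also did with RLE scaling (0.0483 by edgeR).

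Outside mitochondria, the change that held under the most alternatives was that of Slc27a2, which encodes a very long-chain acyl-CoA synthetase and fatty acid transport protein of the endoplasmic reticulum and peroxisome. It had 856, 832 and 949 CPM in the labelled Mdr2-knockout libraries, against 1786, 1940 and 1581 CPM in the labelled wild-type libraries (log2 fold change -1.01, SE 0.10, adjusted p = 6.45e-05). The groups lay far apart relative to their own spread. Slc27a2 was the only member that fell under each of the 14 alternatives tried, the hepatocyte-list scaling included (log2 fold change -0.56, adjusted p = 0.000894). Its promoter window, on the plus strand of GRCm38 at chr2:126552774-126553073, is shown because its call held throughout; capitals mark its 1 match to AGGTCA, the hexamer that nuclear receptors such as PPAR-alpha bind, here on the opposite strand.
Slc27a2: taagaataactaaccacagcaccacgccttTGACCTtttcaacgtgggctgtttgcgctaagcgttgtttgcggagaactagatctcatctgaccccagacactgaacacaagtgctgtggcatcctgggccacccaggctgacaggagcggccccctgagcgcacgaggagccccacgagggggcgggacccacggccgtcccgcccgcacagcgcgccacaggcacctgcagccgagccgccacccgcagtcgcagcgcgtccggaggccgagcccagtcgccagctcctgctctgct

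Promoter windows were matched by symbol for 27 of the 32 members. AGGTCA, on either strand, was found in 6 of them, 22.2% (Acadm, Acadvl, Cpt1a, Echs1, Scp2 and Slc27a2), against 18.1% of the 27025 genes with a window. PPAR-alpha with its partner RXR binds 2 such hexamers in a direct repeat with 1 base between them. Allowing 2 mismatches, on either strand, that repeat was found in 2 members, 7.41%, against 4.40% of all genes. The matches were AGGTCACGGGTCC in Echs1, starting 83 bases before the gene start (window chr7:140116372-140116671, minus strand), and TTACCTTTGCCCT in Etfa, starting 77 bases before the gene start (window chr9:55512194-55512493, minus strand). A match describes the letters of the window and is not evidence of binding.

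Hacl1 and Eci2 fell by a similar size with wider spread. Hacl1, whose enzyme splits 2-hydroxyacyl-CoA in the alpha-oxidation of branched chains, had 238, 164 and 252 CPM in the labelled Mdr2-knockout libraries and 477, 522 and 320 CPM in the labelled wild-type libraries (log2 fold change -1.01, SE 0.24, adjusted p = 0.02). Eci2, an enoyl-CoA isomerase gene of peroxisomes and mitochondria, had 74.8, 86.9 and 132 CPM in the labelled Mdr2-knockout libraries and 214, 207 and 163 CPM in the labelled wild-type libraries (log2 fold change -0.99, SE 0.24, adjusted p = 0.0244). Neither overlapped between the groups. Hacl1 did not pass without labelled wild-type replicate 1 (adjusted p = 0.0636). Eci2 did not pass without labelled Mdr2-knockout replicate 2 (0.0769), or without labelled wild-type replicate 1 (0.071) or 2 (0.0666). Neither gene passed with the replicate number as a block (0.0952 for Hacl1 and 0.0969 for Eci2).

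The 5 genes of the core peroxisomal spiral did not pass, with log2 fold changes from -0.30 to -0.14 with TMM; with total counts all of them except Hsd17b4 were above 0. Each overlapped between the groups. Hsd17b4, which encodes the multifunctional enzyme for branched chains and bile acid precursors, had 395, 385 and 481 CPM in the labelled Mdr2-knockout libraries, against 577, 537 and 441 CPM in the labelled wild-type libraries (adjusted p = 0.0723). Ehhadh, the other multifunctional enzyme gene, had 174, 169 and 263 CPM in the labelled Mdr2-knockout libraries, against 290, 249 and 182 CPM in the labelled wild-type libraries (adjusted p = 0.468). In both genes labelled Mdr2-knockout replicate 3 lay above labelled wild-type replicate 3. Hsd17b4 passed as lower with DESeq2 (adjusted p = 0.041), with no low-count filter (0.0486), without labelled Mdr2-knockout replicate 3 (0.0306) or without labelled wild-type replicate 3 (0.0149).

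Scp2, which encodes both a peroxisomal thiolase and a sterol carrier protein, was the most abundant member, with 3139, 2621 and 3214 CPM in the labelled Mdr2-knockout libraries, against 3757, 3338 and 2801 CPM in the labelled wild-type libraries (log2 fold change -0.14, SE 0.12, adjusted p = 0.387). The paralogous thiolase genes Acaa1a and Acaa1b had log2 fold changes of -0.26 (adjusted p = 0.0831) and -0.17 (adjusted p = 0.498). Their coding sequences are alike, so reads may be divided between them by the counting; the ratio of Acaa1b to Acaa1a counts was 2.73 ± 0.120 in the labelled Mdr2-knockout and 2.54 ± 0.394 in the labelled wild-type libraries, with overlap. Acaa1a passed as lower without labelled Mdr2-knockout replicate 3 (adjusted p = 0.0297), and Acaa1b turned to 0.027 without labelled wild-type replicate 1. The carnitine acyltransferase genes Crot and Crat, both counted here as peroxisomal, and the reductase gene Decr2 had log2 fold changes of -0.24, -0.51 and -0.22. They did not pass (adjusted p = 0.148, 0.203 and 0.217). Crot lies near Abcb4 on chromosome 5 (8966033-8997146 and 8893614-8959226), and whether that bears on its level was not tested. Crat passed with DESeq2 (adjusted p = 0.0334) and without labelled Mdr2-knockout replicate 3 (0.0367), and Crot and Decr2 without labelled wild-type replicate 3 (0.0225 and 0.0467).

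Both ketone body members varied too much within groups to pass. Acat1 encodes the mitochondrial thiolase that joins 2 acetyl-CoA, and had 255, 170 and 278 CPM in the labelled Mdr2-knockout libraries and 462, 335 and 256 CPM in the labelled wild-type libraries (log2 fold change -0.58, SE 0.29, adjusted p = 0.172). Bdh1 encodes the dehydrogenase that reduces acetoacetate to beta-hydroxybutyrate, and had 95.9, 55.4 and 113 CPM in the labelled Mdr2-knockout libraries and 179, 145 and 94.1 CPM in the labelled wild-type libraries (log2 fold change -0.66, SE 0.38, adjusted p = 0.239). In both genes the lowest labelled wild-type library lay within the labelled Mdr2-knockout range. Neither passed under any of the 14 alternatives.

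Among further genes of ketone body metabolism, which are not members, the mitochondrial deacetylase gene Sirt3 fell with TMM (log2 fold change -0.40, adjusted p = 0.00324), did not pass with total counts (-0.11), and was at 0.050 with the hepatocyte-list scaling. Oxct1 and Slc16a7 moved the other way. Oxct1, which encodes the enzyme that lets tissues other than hepatocytes burn ketone bodies, had 12.6, 12.5 and 12.2 CPM in the labelled Mdr2-knockout libraries and 5.02, 6.32 and 5.17 CPM in the labelled wild-type libraries (log2 fold change 1.18, SE 0.13, adjusted p = 0.000132). The monocarboxylate transporter gene Slc16a7 rose as well (log2 fold change 0.45, adjusted p = 0.00878). Both passed with each of the scalings tried and without each single library. Aacs, which encodes a cytosolic acetoacetyl-CoA synthetase, and Acat3 passed narrowly (adjusted p = 0.0411 and 0.0427) and lost the call without labelled Mdr2-knockout replicate 1 (0.156 and 0.137) or 2 (0.0595 for each), and without labelled wild-type replicate 2 (0.108 and 0.169); Aacs lost it also without labelled wild-type replicate 1 (0.142), and Acat3 without labelled Mdr2-knockout replicate 3 (0.0752) or labelled wild-type replicate 3 (0.113). The transporter gene Slc16a1 was at 0.062 and the cytosolic thiolase gene Acat2 at -0.053 on the log2 scale and did not pass.

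Pdk4 encodes the pyruvate dehydrogenase kinase that fasting and PPAR-alpha are known to raise, and that spares glucose when fat is burnt. It had 18.9, 12.6 and 13.3 CPM in the labelled Mdr2-knockout libraries, against 6.29, 7.54 and 4.35 CPM in the labelled wild-type libraries (log2 fold change 1.30, SE 0.22, adjusted p = 0.0026). It was the member with the lowest level, also per length, and the only one to rise. The groups did not overlap, and the call held under each of the 14 alternatives, with log2 fold changes of 1.60 and 1.75 under total-count and hepatocyte-list scaling.

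Acad11, an acyl-CoA dehydrogenase gene of the same family, was given no compartment in the list used here. It had 317, 312 and 406 CPM in the labelled Mdr2-knockout libraries, against 517, 526 and 433 CPM in the labelled wild-type libraries, without overlap (log2 fold change -0.51, SE 0.12, adjusted p = 0.00789). It passed without each single library, and not with total counts (adjusted p = 0.156).

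The members rose and fell together from library to library within each group. Among the labelled Mdr2-knockout libraries, replicate 3 was the highest for 29 of the 32 members and replicate 2 the lowest for 30. Among the labelled wild-type libraries, replicate 1 was the highest for 27 members and replicate 3 the lowest for 30. Over all tested genes the same 4 shares were 34.2%, 33.7%, 33.9% and 34.2%, and the hepatocyte list did not show this order, with 9 and 6 of 30 in the labelled Mdr2-knockout and 4 and 10 of 30 in the labelled wild-type libraries. The median coefficient of variation of the members was 16.3% in the labelled Mdr2-knockout and 14.0% in the labelled wild-type libraries, against 6.79% and 6.82% over the 7764 tested genes at or above the lowest member. Of the 17 citric acid cycle genes, 7 were highest in replicate 3 and 12 lowest in replicate 2 among the labelled Mdr2-knockout libraries, where replicate 1 was the highest for 8. Among the labelled wild-type libraries 12 were highest in replicate 1 and 14 lowest in replicate 3. The members shared these shifts and are not independent readings of the genotype.

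**Figure D2:**
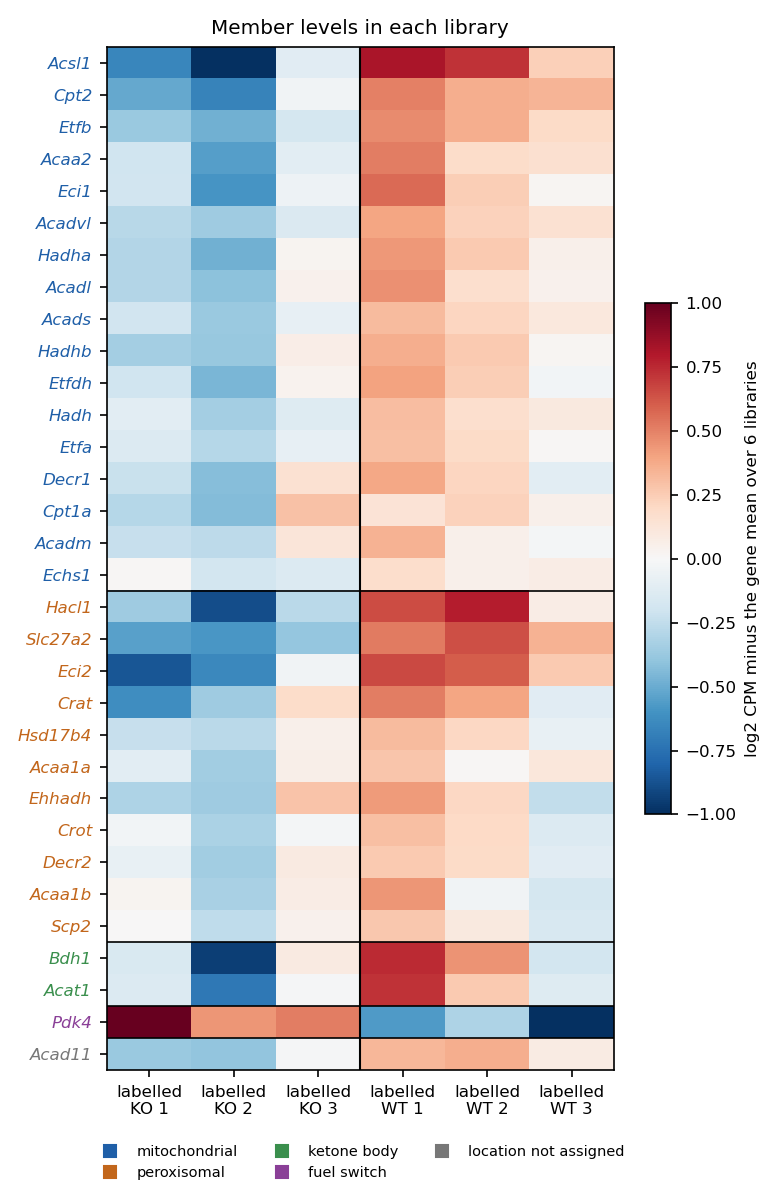
Level of each member in each library as log2 CPM minus the gene's mean over the 6 libraries; rows are grouped and coloured by compartment, labelled Mdr2-knockout (KO) libraries are left of the vertical line and labelled wild-type (WT) libraries right of it. Labelled KO replicate 3 is the highest of its group for 29 of 32 members, and labelled WT replicate 3 is the lowest of its group for 30 of 32.

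The same order stood out in Cyp4a10 and Cyp4a14, fatty acid omega-hydroxylase genes used as sensitive readouts of PPAR-alpha, which were picked after their values were seen. Cyp4a10 had 52.3, 35.6 and 406 CPM in the labelled Mdr2-knockout libraries and 1089, 532 and 170 CPM in the labelled wild-type libraries. Cyp4a14 had 13.5, 8.91 and 344 CPM in the labelled Mdr2-knockout libraries and 1036, 380 and 81.7 CPM in the labelled wild-type libraries. These are close paralogs whose reads may be divided by the counting. With such spread neither passed (adjusted p = 0.345 and 0.461), and labelled Mdr2-knockout replicate 3 lay above labelled wild-type replicate 3 in both. They belong to a list of 26 tested PPAR-alpha targets, over which the order was not counted. Pdk4, which PPAR-alpha is also known to raise, shared the lowest library of each group with this order, but not the highest. Its levels were 18.9, 12.6 and 13.3 CPM in the labelled Mdr2-knockout and 6.29, 7.54 and 4.35 CPM in the labelled wild-type libraries. The source of the shared order was not tested.

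Ratios within a library do not depend on how libraries are scaled, and 5 gene pairs of the pathway were compared in this way. The ratio of Cpt1a to Cpt2 counts was 3.50, 3.51 and 3.75 in the labelled Mdr2-knockout libraries and 2.32, 2.72 and 2.43 in the labelled wild-type libraries. The ratio of Etfa to Etfb counts was 1.59, 1.55 and 1.44 in the labelled Mdr2-knockout libraries and 1.20, 1.20 and 1.20 in the labelled wild-type libraries. Neither pair overlapped between the groups, and each gave an exact two-sided permutation p of 0.1, the smallest that 3 against 3 allows (0.25 after Benjamini-Hochberg adjustment over the 5 pairs). Hadha to Hadhb, Acaa1b to Acaa1a and Bdh1 to Acat1 overlapped (exact permutation p = 0.3, 0.5 and 0.5).

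The summed counts of the 17 mitochondrial members, divided by those of 17 genes of the citric acid cycle, gave 1.39, 1.28 and 1.69 in the labelled Mdr2-knockout libraries, against 2.05, 1.91 and 1.78 in the labelled wild-type libraries. The groups did not overlap. For the 11 peroxisomal members the same ratio was 2.19, 2.00 and 2.36 in the labelled Mdr2-knockout libraries and 2.70, 2.61 and 2.29 in the labelled wild-type libraries, with overlap. All members together were also divided by the hepatocyte list without its albumin gene Alb. That ratio overlapped, at 0.103, 0.0830 and 0.115 in the labelled Mdr2-knockout libraries and 0.126, 0.109 and 0.0859 in the labelled wild-type libraries. The separation of the mitochondrial ratio thus holds relative to citric acid cycle genes. Peroxisomal over mitochondrial counts were 1.51 ± 0.0995 in the labelled Mdr2-knockout and 1.32 ± 0.0434 in the labelled wild-type libraries, without overlap. That difference rested on Scp2, which held 26.3% to 29.2% of the members' counts in the labelled Mdr2-knockout libraries and 21.9% to 22.6% in the labelled wild-type libraries. Without Scp2 the ratio was 0.759 ± 0.0366 in the labelled Mdr2-knockout and 0.772 ± 0.0383 in the labelled wild-type libraries, an omission chosen after seeing the data.

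**Figure D3:**
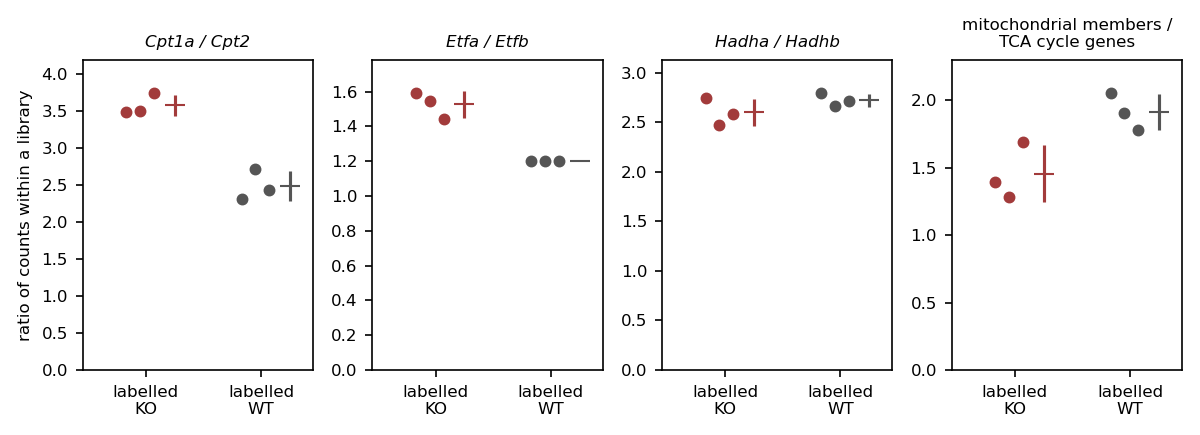
Ratio of counts within each library for 3 gene pairs and for the summed mitochondrial members over citric acid cycle genes, in labelled Mdr2-knockout (KO) and labelled wild-type (WT) libraries; points are libraries, and the mark beside them is the mean with its SD (n = 3). Cpt1a over Cpt2 and Etfa over Etfb are higher in each labelled KO library, Hadha over Hadhb overlaps, and the last ratio is lower in each labelled KO library.

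Levels of different genes were compared per length with the deposited FPKM, which are scaled by total counts. Scp2 was the highest member, at 1160 ± 132 FPKM in the labelled Mdr2-knockout and 1044 ± 164 FPKM in the labelled wild-type libraries. Slc27a2 came next, at 423 ± 31.1 FPKM in the labelled Mdr2-knockout and 694 ± 67.8 FPKM in the labelled wild-type libraries. Acaa2 followed, at 335 ± 54.7 FPKM in the labelled Mdr2-knockout and 406 ± 64.3 FPKM in the labelled wild-type libraries. In the labelled Mdr2-knockout libraries Slc27a2 and Acaa2 stood closer together than in the labelled wild-type libraries. Etfb was next in both groups, at 185 ± 20.9 FPKM in the labelled Mdr2-knockout and 242 ± 26.2 FPKM in the labelled wild-type libraries. Below it the ranks changed most for Acsl1, which was number 15 of the members by level in the labelled Mdr2-knockout libraries (101 ± 32.5 FPKM) and number 6 in the labelled wild-type libraries (184 ± 38.6 FPKM). Many neighbours in this order lay within each other's SD, among them Acadvl (165 ± 13.1 FPKM) and Hsd17b4 (173 ± 22.3 FPKM) in the labelled Mdr2-knockout libraries. At the low end stood Crat, at 12.5 ± 3.69 FPKM in the labelled Mdr2-knockout and 14.5 ± 3.25 FPKM in the labelled wild-type libraries, and Pdk4, at 4.79 ± 1.13 FPKM in the labelled Mdr2-knockout and 1.58 ± 0.411 FPKM in the labelled wild-type libraries.

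Hepatocyte genes shifted by a size close to that of the members. Of 30 such genes, 21 fell and 1 rose in the labelled Mdr2-knockout libraries, with a median log2 fold change of -0.48. They summed to between 152732 and 162010 CPM in each labelled Mdr2-knockout library, against 217342 to 230500 CPM in labelled wild-type libraries. With total counts 12 of the 30 fell and 3 rose. Markers of other cells were higher: 11 of 11 tested bile duct cell markers rose, summing to 387 to 423 CPM in the labelled Mdr2-knockout and 62.4 to 82.2 CPM in the labelled wild-type libraries. Of 11 tested monocyte and macrophage markers 9 rose and 0 fell, summing to 481 to 512 CPM in labelled Mdr2-knockout and 186 to 328 CPM in labelled wild-type libraries. Of 11 stellate cell and fibroblast markers 8 rose and 0 fell, summing to 670 to 815 CPM in labelled Mdr2-knockout and 279 to 430 CPM in labelled wild-type libraries. Of 10 endothelial markers, 1 rose and 3 fell with TMM, and 5 rose and 1 fell with total counts. No marker of these lists was at 0 in all libraries of a group. In bulk liver, fewer hepatocytes and less of a transcript per hepatocyte cannot be told apart, and the part of this shift in the members' changes was not tested.

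TMM factors were 1.10 to 1.11 in the labelled Mdr2-knockout and 0.889 to 0.920 in the labelled wild-type libraries, so setting them aside shifts every gene upward. Across the tested genes the median log2 fold change was 0.30 with total counts and 0.46 with the hepatocyte list, against 0.01 with TMM. With total counts 5943 of the 12612 tested genes rose and 330 fell. Every total-count number given for a list of genes is to be read beside these. The members' medians were -0.13 with total counts and 0.02 with the hepatocyte list. With total counts the 5 lower members were Acsl1, Cpt2, Etfb, Slc27a2 and Hacl1, and 9 members, Cpt1a, Acadm and Scp2 among them, changed sign without passing. With the hepatocyte list Slc27a2 alone fell, and Echs1 (log2 fold change 0.25, adjusted p = 0.0399) and Pdk4 rose. Cpt2 and Etfb each held in 13 of 14 alternatives and lost the call with the hepatocyte list (adjusted p = 0.0976 and 0.0968).

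**Figure D4:**
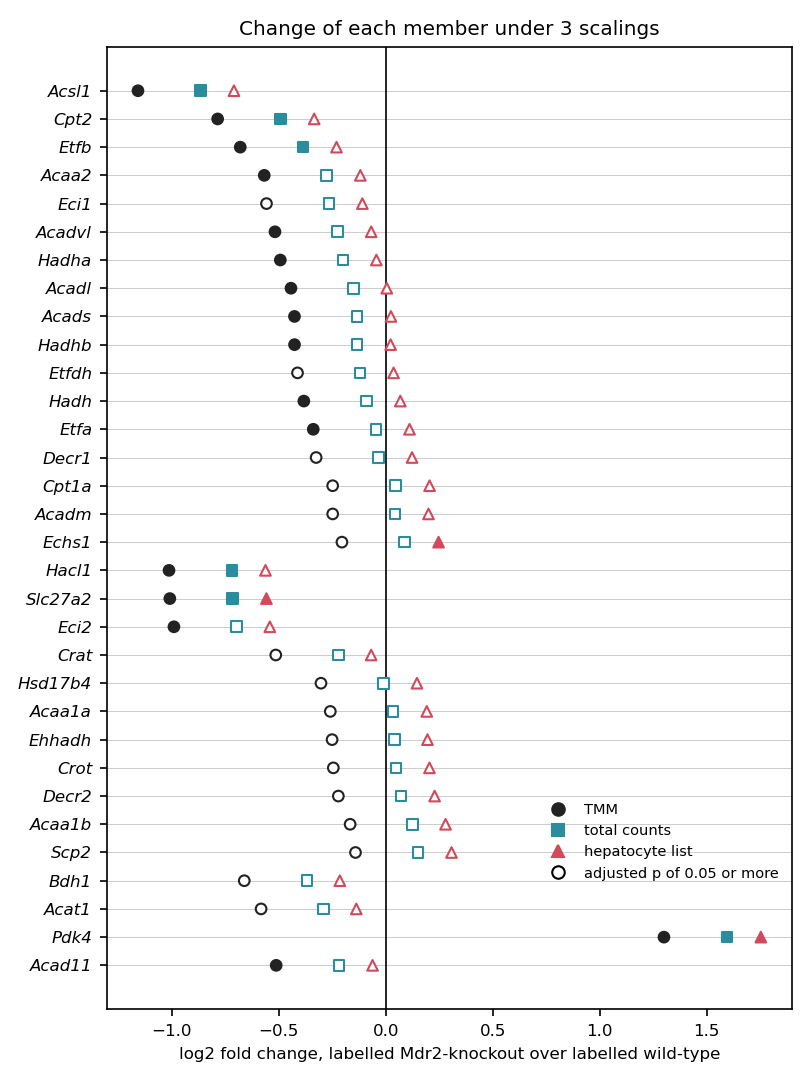
Log2 fold change of each member, labelled Mdr2-knockout over labelled wild-type, with TMM factors (circles), total counts (squares) and factors from 30 hepatocyte genes (triangles); filled symbols had an edgeR adjusted p under 0.05. Filled symbols left of 0 number 15, 5 and 1 in that order, and Slc27a2 and Pdk4 are filled under all 3.

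Around the members, 27 further tested genes of mitochondrial acyl-CoA oxidation gave 10 lower and 2 higher, with a median log2 fold change of -0.13. Ivd and Gcdh, which encode dehydrogenases of leucine and of lysine breakdown, fell by 0.54 and 0.49 on the log2 scale (adjusted p = 0.000555 and 0.00487), and Cpt1c, the carnitine palmitoyltransferase form best known from brain, rose by 2.26 (adjusted p = 0.00251) at 1.25 ± 0.183 CPM in the labelled Mdr2-knockout and 0.254 ± 0.109 CPM in the labelled wild-type libraries. With total counts the list gave 1 lower and 9 higher, Ivd still lower (-0.25, adjusted p = 0.0289) and Gcdh not passing (adjusted p = 0.164).

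Other peroxisomal genes gave 6 lower and 3 higher of 25 tested, with a median of -0.19, and 1 lower and 7 higher with total counts. The plasmalogen synthesis genes Far1 (log2 fold change 1.29, adjusted p = 0.000775) and Agps (0.52, adjusted p = 0.00517) rose, as did the arachidonate-preferring acyl-CoA synthetase gene Acsl4, at 74.4 ± 4.88 CPM in the labelled Mdr2-knockout and 37.8 ± 1.52 CPM in the labelled wild-type libraries (log2 fold change 0.97, adjusted p = 1.2e-05). These 3 rose under each scaling. Gnpat, another plasmalogen synthesis gene, did not pass with TMM (log2 fold change -0.094, adjusted p = 0.273). With total counts Gnpat was higher (0.20, adjusted p = 0.0334). The glycolate oxidase gene Hao1 fell by 0.68 with TMM (adjusted p = 0.00107) and also passed with total counts (-0.39), but not with the hepatocyte list (adjusted p = 0.113). Of 16 peroxisome assembly genes 5 fell and 0 rose with TMM, led by Pex16 (-0.53) and Pex6 (-0.44), while with total counts 1, Pex16, fell and 2 rose; Pex6 was at 0.015 with the hepatocyte list.

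Of 17 tested regulators of the pathway 8 fell and 1 rose, and with total counts 1 fell and 1 rose. Ppara had 154, 121 and 197 CPM in the labelled Mdr2-knockout libraries, against 315, 272 and 222 CPM in the labelled wild-type libraries (log2 fold change -0.78, SE 0.20, adjusted p = 0.0264), without overlap. Its call was lost without labelled Mdr2-knockout replicate 1 (adjusted p = 0.0848) or labelled wild-type replicate 1 (0.0617) or 2 (0.0668), and with total counts (0.101). Its partner gene Rxra averaged 497 ± 45.9 CPM in the labelled Mdr2-knockout and 659 ± 31.4 CPM in the labelled wild-type libraries (log2 fold change -0.41, adjusted p = 0.00627); it was at -0.11 with total counts and 0.049 with the hepatocyte list, without passing. Foxo1, a fasting-responsive transcription factor gene, fell by 0.70 (adjusted p = 0.00629) and passed with total counts too (-0.41, adjusted p = 0.0306), though not with the hepatocyte list (0.0982). The higher 1 was Pparg, the lipid-storing relative of Ppara, at 10.1 ± 1.22 CPM in the labelled Mdr2-knockout and 4.99 ± 1.81 CPM in the labelled wild-type libraries (log2 fold change 1.01, adjusted p = 0.00844), which rose under each scaling. The coactivator gene Ppargc1a did not pass (log2 fold change 0.22, adjusted p = 0.561).

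Further genes known as PPAR-alpha targets gave 1 lower and 6 higher of 26 tested, with a median of -0.25 (0.038 with total counts). The fatty acid uptake gene Cd36 had 72.8, 52.8 and 86.3 CPM in the labelled Mdr2-knockout libraries and 23.9, 22.6 and 22.5 CPM in the labelled wild-type libraries (log2 fold change 1.62, SE 0.17, adjusted p = 0.00062), and Ucp2, a mitochondrial carrier gene, rose by 0.83 (adjusted p = 0.00252). Both genes are also expressed by macrophages. The citric acid cycle genes gave 7 lower and 0 higher of 17 with TMM (median -0.14) and 0 lower and 7 higher with total counts. Fatty acid synthesis genes gave 3 lower and 3 higher of 13. Acaca, an acetyl-CoA carboxylase gene whose product makes malonyl-CoA, rose by 0.73 (adjusted p = 0.000161) and did so under each scaling. Acacb, the other acetyl-CoA carboxylase gene, did not pass with TMM (log2 fold change -0.18, adjusted p = 0.163). With the hepatocyte list Acacb was higher (0.27, adjusted p = 0.0267). The glucose-sensing factor gene Mlxipl fell by 0.66 (adjusted p = 0.000198), though not with the hepatocyte list (adjusted p = 0.0722).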

How the data were processed

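RNA of mouse liver was measured in 6 libraries. The submitters' processing notes name SAMtools, HTSeq, Cufflinks, HISAT2, Bowtie2, StringTie, DESeq and Trimmomatic and the build mm10 (GRCm38). What each did, its version, the annotation and whether strand was used are not stated there, so reads of overlapping genes cannot be told apart. The authors deposited whole-number read counts per gene symbol without normalization, and FPKM values for the same genes. In 11443 genes with at least 10 counts per library, the deposited FPKM followed counts over the library total within 1%. Counts were tested with edgeR 4.0.16 (R 4.3.3): filterByExpr (minimum count 10, minimum total 15), TMM factors, a robust quasi-likelihood fit with group as the only term, and Benjamini-Hochberg adjustment over 12612 genes. Every adjusted p is from that edgeR test where no other tool is given. CPM were computed from counts with TMM-scaled library sizes. Each standard error (SE) is the log2 fold change divided by the root of its F value, and ± is SD. The pipeline was checked on simulated counts.

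Alternatives were RLE, upper-quartile, total-count and hepatocyte-list scaling, DESeq2 1.42.0, limma-voom (limma 3.58.1), no low-count filter, each library left out, and the replicate number as a block, 14 per member. No pair of libraries within a group was alike within counting error (chi-square over its degrees of freedom 16.0 or more), and each counts as 1 replicate. Members and lists were chosen with earlier results of these data known. Each member was named, and of each further list up to 4 genes with the smallest p, with further ketone body and regulator genes averaging at least 10 CPM. Acacb and Gnpat were named besides, as counterparts of Acaca and of Far1 and Agps. Promoters are from RefSeq (GRCm38.p6). Every column was matched to a sample. Some genes of ketone body metabolism are not reported here.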

Additional observations from a re-analysis of the deposited data

How the results depend on the processing

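The directions of the smaller changes rested on the scaling, while Slc27a2 and Pdk4 kept their calls under all 14 alternatives. Total-count scaling gave 5943 higher and 330 lower genes over all tested genes, against 2634 and 2051 with TMM, and hepatocyte-list scaling gave 8635 and 154. Lower members numbered 5 (3 mitochondrial) with total counts and 1 (0 mitochondrial, 1 peroxisomal) with the hepatocyte list, which also gave 2 higher members, 1 of them mitochondrial. DESeq2 gave 20 lower members, 5 of them peroxisomal, beside 1964 lower genes over all tested genes. Leaving out each library in turn gave 2092 to 2603 higher and 1449 to 2006 lower genes, 8 to 23 lower members, 6 to 16 lower mitochondrial members and 1 to 6 lower peroxisomal members. With 2 libraries left in a group, most of what a gene's own spread adds to the test comes from the other group. The fit also draws on the spread of the other genes.

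Of the log2 fold changes, these turned positive with total counts: Cpt1a (0.047), Acadm (0.044), Echs1 (0.088), Ehhadh (0.042), Acaa1a (0.034), Acaa1b (0.12), Scp2 (0.15), Decr2 (0.072) and Crot (0.048). With the hepatocyte list these turned positive: Cpt1a (0.21), Acadl (0.0052), Acadm (0.20), Acads (0.025), Hadhb (0.023), Echs1 (0.25), Hadh (0.068), Decr1 (0.12), Etfa (0.11), Etfdh (0.037), Hsd17b4 (0.15), Ehhadh (0.20), Acaa1a (0.19), Acaa1b (0.28), Scp2 (0.31), Decr2 (0.23) and Crot (0.20). With each library left out in turn Acaa1b ran from -0.30 to 0.027, above 0 without labelled wild-type replicate 1. The difference in the ratio of peroxisomal to mitochondrial counts was 0.184 and turned to -0.0129 without Scp2. The cause of these shifts was not tested.

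Replicate numbers did not pair the libraries: same-numbered libraries deviated together with correlations of 0.08, 0.04 and -0.08, and not every library correlated best with its own number. The fit with the replicate block gave 11 lower members against 15, with 2576 higher and 1992 lower genes over all tested genes. In that fit Acsl1, Acadl, Hadhb, Hacl1 and Eci2 lost the call (adjusted p = 0.0954, 0.0602, 0.0902, 0.0952 and 0.0969). Acaa1a passed as lower (0.0403). The depth of a library, at 0.149 to 0.192 CPM for 3 counts, did not limit the members, all of which averaged at least 10.5 CPM; the spread between 3 libraries did.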
